A study of Mus musculus with 2 samples.

Results

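The GDNF family genes examined here are 3 secreted ligands (Gdnf, Artn and Nrtn), 3 coreceptors (Gfra1, Gfra2 and Gfra3) and the receptor tyrosine kinase Ret. These 7 genes were listed by name out of 32287 features, and were read across cell classes of 1 scRNA-Seq library. The library came from hind limb muscle (tibialis anterior and gastrocnemius) of 2-month-old male wild-type (WT) mice that carried the S100GFPtg reporter, taken 7 days after sciatic nerve crush (7 dpi), and was sorted for cells that carry GFP. The GFP is driven by the S100B promoter to mark Schwann cells (SCs), but cells of other classes in this library carried the Gfp transcript too. The study's methods describe pooled male animals while the series text speaks of a single crushed mouse, so the number of animals is uncertain, and no replicate or uninjured library enters the values. With 1 library no test between conditions was possible, and all intervals given are 95% intervals for counting error only.

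Members of the GDNF family are dimeric growth factors that bind a GFRα protein anchored in the membrane, and the complex then activates RET. The preferred pairs are GDNF with GFRα1, neurturin (Nrtn) with GFRα2 and artemin (Artn) with GFRα3. GDNF bound to GFRα1 can also act through the adhesion molecule NCAM in cells without RET. In peripheral nerve, GDNF is known as a survival and growth factor for motor neurons that denervated SCs produce.

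In the RefSeq annotation of GRCm38.p6, Gdnf lies at chr15:7810048-7837580, Artn at chr4:117925908-117930795, Nrtn at chr17:56751323-56757548, Gfra1 at chr19:58235581-58455946, Gfra2 at chr14:70890107-70979840 and Ret at chr6:118151748-118197744. The bases before the starts of Gdnf and Artn are shown because these are the ligands that stood highest in Schwann-gated cells in the values that follow. The 2 Gdnf windows, on the plus strand, cover chr15:7809798-7810047 and chr15:7813477-7813726, and the Artn window, on the minus strand, covers chr4:117929764-117930013. Each has 250 bases, ends at the base before an annotated start and is written 5′ to 3′. Capitals mark the letters TATAAA, the core of a TATA box.
Gdnf, first start: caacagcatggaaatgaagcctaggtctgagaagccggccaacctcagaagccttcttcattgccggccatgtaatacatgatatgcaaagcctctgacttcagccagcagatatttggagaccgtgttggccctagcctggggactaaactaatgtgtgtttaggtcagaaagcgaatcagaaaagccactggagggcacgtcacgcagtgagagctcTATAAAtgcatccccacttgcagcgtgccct
Gdnf, second start: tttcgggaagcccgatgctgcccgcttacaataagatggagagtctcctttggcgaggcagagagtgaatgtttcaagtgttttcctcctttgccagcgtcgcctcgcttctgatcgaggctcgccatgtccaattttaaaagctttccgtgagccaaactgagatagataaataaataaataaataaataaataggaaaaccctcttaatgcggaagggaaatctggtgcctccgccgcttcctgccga
Artn: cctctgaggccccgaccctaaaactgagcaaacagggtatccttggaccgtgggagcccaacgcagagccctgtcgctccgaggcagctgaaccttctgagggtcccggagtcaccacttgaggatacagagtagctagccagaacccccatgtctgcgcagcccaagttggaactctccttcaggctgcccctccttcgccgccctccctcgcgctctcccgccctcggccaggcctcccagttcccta
Both strands of each window were searched for TATAAA and, separately, for TGANTCA, the AP-1 motif. The first Gdnf window alone held TATAAA, 31 bases before the start, and 12.4% of 32851 windows of the same length held it. No AP-1 motif was found in the windows of Gdnf, Artn, Nrtn or Gfra1, the members with a window in the table, and 6.75% of all windows held it.

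The library held 36400 barcodes and 170648616 UMIs. Levels were read in the 8701 barcodes with at least 5000 UMIs, more than 200 genes and under 10% mitochondrial counts (median 11624 UMIs). A barcode passed the gate of a class when it held at least 3 UMIs over at least 2 marker genes of that class. A barcode that passed several gates went to the class whose markers were at least 2 times ahead of the next, after each list was put on its own scale. In this way 8099 barcodes were gated to 1 class, 454 passed several gates without a clear lead and 148 passed none. Monocyte/macrophage-gated cells made up 5603 of them, mesenchymal-gated cells 1401, dendritic-gated cells 380, tenocyte-gated cells 262, satellite cell and myoblast-gated cells 228, Schwann-gated cells 75 and smooth muscle and pericyte-gated cells 56. The other classes held 36 cells or fewer each.

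Schwann-gated cells, gated on a marker list that includes Sox10, Cdh19, Erbb3, Foxd3 and Zfp536, were checked against genes outside that list. Ngfr, the low-affinity neurotrophin receptor of denervated SCs, reached 604.4 counts per 1000000 UMIs (CPM) in them and 1.60 CPM in all other gated cells. Gap43, a growth-associated protein, reached 647.2 against 4.04 CPM. S100b itself did not separate the class from mesenchymal-gated cells, with 17.1 CPM (8.86 to 29.9) in Schwann-gated and 15.3 CPM (13.7 to 17.0) in mesenchymal-gated cells, and reached 27.3 CPM (23.2 to 31.9) in the mesenchymal-gated cells that carried Dkk2, Bmper and Lsamp. The Gfp transcript was at 650.1 CPM in Schwann-gated and 366.0 CPM in all other gated cells, so the reporter was present outside SCs too. Macrophages gated on Ly6c2, Chil3 and Plac8 held more, 1149 CPM (1117 to 1181), as did those gated on Gpnmb, Fabp5 and Spp1, 845.8 CPM (827.8 to 864.2). Those gated on Lyve1, Folr2, Fcna, Cd163 and Timd4 held 247.3 CPM and mesenchymal-gated cells 125.6 CPM. All monocyte/macrophage-gated cells together held Gfp at 463.8 CPM and S100b at 1.31 CPM. Of 127 barcodes that passed the Schwann gate, 52 were left out of the class, and 52 of the 127 also passed the mesenchymal gate. Of the 75 cells in the class, 14 also passed the mesenchymal gate, and the class as a whole carried the 5 mesenchymal markers at a summed 317.2 CPM, against 4121 CPM in mesenchymal-gated cells and 20.2 CPM in monocyte/macrophage-gated cells. The part of the other cells' RNA in the values below was not tested, apart from the settings in the closing section.

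Gdnf was high in Schwann-gated cells and low elsewhere. Its 148 UMIs in the 75 Schwann-gated cells gave 211.5 CPM (178.8 to 248.4). Counting all 127 barcodes that passed the Schwann gate, whatever other gate they passed, lowered the level to 129.7 CPM (112.3 to 149.0). Of all Gdnf UMIs in gated cells 54.6% fell in the class of 75 cells, out of 8099 gated to 1 class. All other gated cells together held 123 UMIs, or 1.17 CPM (0.973 to 1.40), which put the log2 ratio at 7.50 (7.14 to 7.85). Satellite cell and myoblast-gated cells came next with 11.4 CPM (7.59 to 16.5), a level 18.5-fold below that of Schwann-gated cells (12.3 to 28.8). The interval of smooth muscle and pericyte-gated cells, 4.85 CPM (1.00 to 14.2) from 3 UMIs, overlapped that of the satellite cell and myoblast-gated cells. Mesenchymal-gated cells held 2.28 CPM (1.70 to 3.01), tenocyte-gated cells 1.24 CPM (0.337 to 3.17) and monocyte/macrophage-gated cells 0.532 CPM (0.374 to 0.733), and dendritic-gated cells held 0 UMIs, which allows up to 0.487 CPM. A single mesenchymal-gated cell carried 28 of the 50 UMIs of its class, and without it that level was 1.01 CPM. Summed Schwann markers were at 54.6 CPM in satellite cell and myoblast-gated cells and 92.1 CPM in smooth muscle and pericyte-gated cells. They were at 15.5 CPM in mesenchymal-gated, 5.15 CPM in monocyte/macrophage-gated and 4470.5 CPM in Schwann-gated cells. The part of Schwann RNA in the Gdnf levels of other classes was not tested.

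Gdnf was spread over many Schwann-gated cells. A Gdnf UMI was found in 53 of the 75 cells, and the 5 cells with the most held 27.7% of the UMIs. After each cell was thinned at random to 5000 UMIs, so that depth was equal, 42 cells held Gdnf (56%, exact binomial interval 44.1 to 67.5%), against 70.7% before thinning. The thinned share was 5.26% (2.75 to 9.01%) in satellite cell and myoblast-gated cells, 0.642% (0.294 to 1.22%) in mesenchymal-gated cells and 0.196% (0.0980 to 0.351%) in monocyte/macrophage-gated cells. Median depths before thinning were 8425 UMIs in Schwann-gated and 11238 UMIs in monocyte/macrophage-gated cells.

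**Figure D1:**
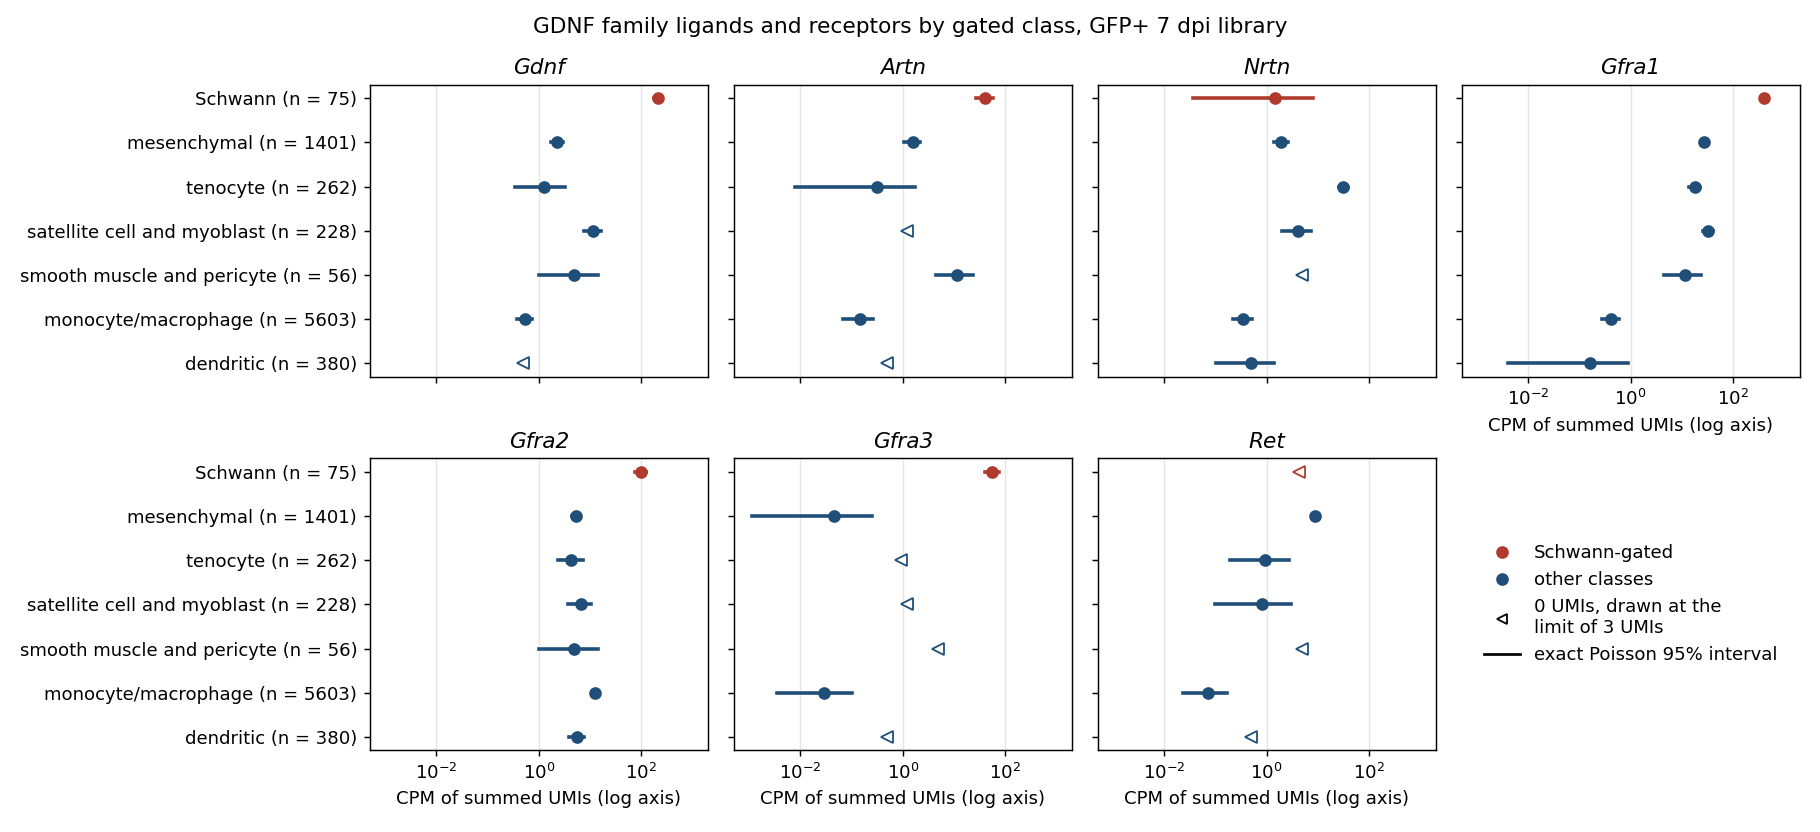
Level of each family member (CPM of summed UMIs, log axis) in the 7 classes with at least 50 cells, with exact Poisson 95% intervals and open triangles at the limit of 3 UMIs where none was counted. Gdnf, Artn, Gfra1, Gfra2 and Gfra3 were highest in Schwann-gated cells (red), Nrtn in tenocyte-gated and Ret in mesenchymal-gated cells.

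Artn, the ligand that prefers GFRα3, was also highest in Schwann-gated cells, from fewer molecules. Its 28 UMIs gave 40.0 CPM (26.6 to 57.8) against 0.495 CPM (0.369 to 0.649) in all other gated cells, a log2 ratio of 6.34 (5.62 to 7.03). Artn UMIs were found in 20 of the 75 cells, and in 17.3% (9.57 to 27.8%) after thinning. Smooth muscle and pericyte-gated cells were next at 11.3 CPM (4.55 to 23.3), 3.54-fold lower (1.51 to 9.59), but 5 of their 7 UMIs came from 1 cell and the level without it was 3.34 CPM. That class also carried Schwann markers at a summed 92.1 CPM, and 1 cell held 30 of its 33 Gap43 UMIs. The part of Schwann RNA in its Artn level was not tested. Mesenchymal-gated cells held 1.55 CPM (1.08 to 2.17), and monocyte/macrophage-gated cells 0.144 CPM (0.0689 to 0.264). In mesenchymal-gated cells the Artn UMIs were scattered, with 34 UMIs over 30 cells.

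Nrtn had a different distribution. It was highest in tenocyte-gated cells, which were selected on Tnmd, Scx, Mkx, Thbs4 and Fmod, with 102 UMIs or 31.6 CPM (25.7 to 38.3). That was 39.0-fold (28.9 to 52.8) the level in all other gated cells together, 0.809 CPM. Of 262 tenocyte-gated cells 58 held Nrtn, 12.2% (8.51 to 16.8%) after thinning, and no cell held more than 6 UMIs. Among the classes with at least 50 cells, satellite cell and myoblast-gated cells followed with 4.08 CPM (1.96 to 7.50) and mesenchymal-gated cells with 1.92 CPM (1.38 to 2.59), whose intervals overlapped. The 8 perineurial-gated cells held 2 Nrtn UMIs, both in 1 cell (19.5 CPM, 2.36 to 70.5), and the 16 muscle fibre-gated cells a single one. Schwann-gated cells held a single Nrtn UMI, 1.43 CPM (0.0362 to 7.96), so that the log2 ratio to other cells, −0.29, had an interval from −5.60 to 2.20 and no direction could be read. Counting every barcode that passed the tenocyte gate, whatever other gate it passed, lowered the tenocyte level to 16.5 CPM.

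Gfra1, the preferred coreceptor of GDNF, reached 395.8 CPM (350.5 to 445.2) in Schwann-gated cells, from 277 UMIs, against 7.54 CPM (7.03 to 8.09) in all other gated cells. The log2 ratio was 5.71 (5.51 to 5.91). Unlike Gdnf, the UMIs were concentrated in part of the cells. Gfra1 was found in 29 of the 75 cells, 46 cells held none, 23 held at least 2, and the 5 cells with the most held 49.1% of the UMIs. The highest cell had 55 UMIs, 19.9% of the total, and the level without it was 323.0 CPM. The level also moved with the quality limits, to 242.1 CPM in the 57 Schwann-gated cells under 5% mitochondrial counts and to 539.6 CPM in the 24 with at least 10000 UMIs.

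Outside SCs, Gfra1 was found in several stromal classes. Satellite cell and myoblast-gated cells held 33.0 CPM (26.2 to 41.0), but 50 of their 81 UMIs were in 1 cell and the level without it was 12.7 CPM. Mesenchymal-gated cells held 27.5 CPM (25.4 to 29.8), tenocyte-gated cells 18.0 CPM (13.6 to 23.2) and smooth muscle and pericyte-gated cells 11.3 CPM (4.55 to 23.3), while monocyte/macrophage-gated cells held 0.417 CPM (0.279 to 0.599). The 8 perineurial-gated cells, which carried Cldn1, Itgb4, Moxd1 or Lypd2, had 13 UMIs in 5 cells, or 126.9 CPM (67.6 to 217.0).

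Mesenchymal-gated cells were further divided by 5 lists of fibroblast genes, and Gfra1 differed among them by more than counting error. Cells gated on Smoc2, Cxcl14 and Hsd11b1 held 66.4 CPM (57.0 to 77.0), 3.98-fold (3.09 to 5.16) the 16.7 CPM (13.5 to 20.3) of cells gated on Dkk2, Bmper and Lsamp. The 16 cells gated on Apod, Tenm2 and Col28a1 held 115.9 CPM (78.7 to 164.5), although their summed Schwann markers, at 138.3 CPM, were also the highest of the 5 groups, which otherwise ranged from 2.84 to 30.0 CPM. The Pi16 and Dpp4 group held 22.7 CPM (19.2 to 26.8), with 42 of its 145 UMIs in 1 cell. The Gdf10 and Inmt group was lowest at 5.68 CPM (2.08 to 12.4).

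Gfra2, the preferred coreceptor of neurturin, had 68 UMIs in Schwann-gated cells, or 97.2 CPM (75.4 to 123.2). All other gated cells held 10.2 CPM (9.55 to 10.8), a log2 ratio of 3.26 (2.88 to 3.61). It was found in 30 of the 75 cells, and in 28.0% (18.2 to 39.6%) after thinning. The 8 perineurial-gated cells held 146.5 CPM (82.0 to 241.5) from 15 UMIs, and the interval of the fold between them and Schwann-gated cells included 1. Because other cells also used the gene, the 68 Schwann UMIs were 5.99% of the Gfra2 UMIs in gated cells.

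Most Gfra2 UMIs outside SCs lay in macrophages. Monocyte/macrophage-gated cells held 866 UMIs, or 12.4 CPM (11.6 to 13.3), above the 5.39 CPM (4.46 to 6.45) of mesenchymal-gated cells and the 5.52 CPM (3.82 to 7.71) of dendritic-gated cells. Within them, cells gated on Lyve1, Folr2, Fcna, Cd163 and Timd4, genes of resident macrophages, held 17.6 CPM (16.3 to 18.9) over 473 of 3393 cells. Cells gated on Gpnmb, Fabp5 and Spp1 held 2.22 CPM (1.39 to 3.37), 7.90-fold lower (5.18 to 12.7), and cells gated on the monocyte genes Ly6c2, Chil3 and Plac8 held 0.464 CPM (0.0562 to 1.68), from 2 UMIs. No cell of the Lyve1 group held more than 6 Gfra2 UMIs. After thinning, the shares were 7.31% (6.46 to 8.24%), 0.903% (0.294 to 2.09%) and 0 of 379 cells, which allows up to 0.792%.

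**Figure D2:**
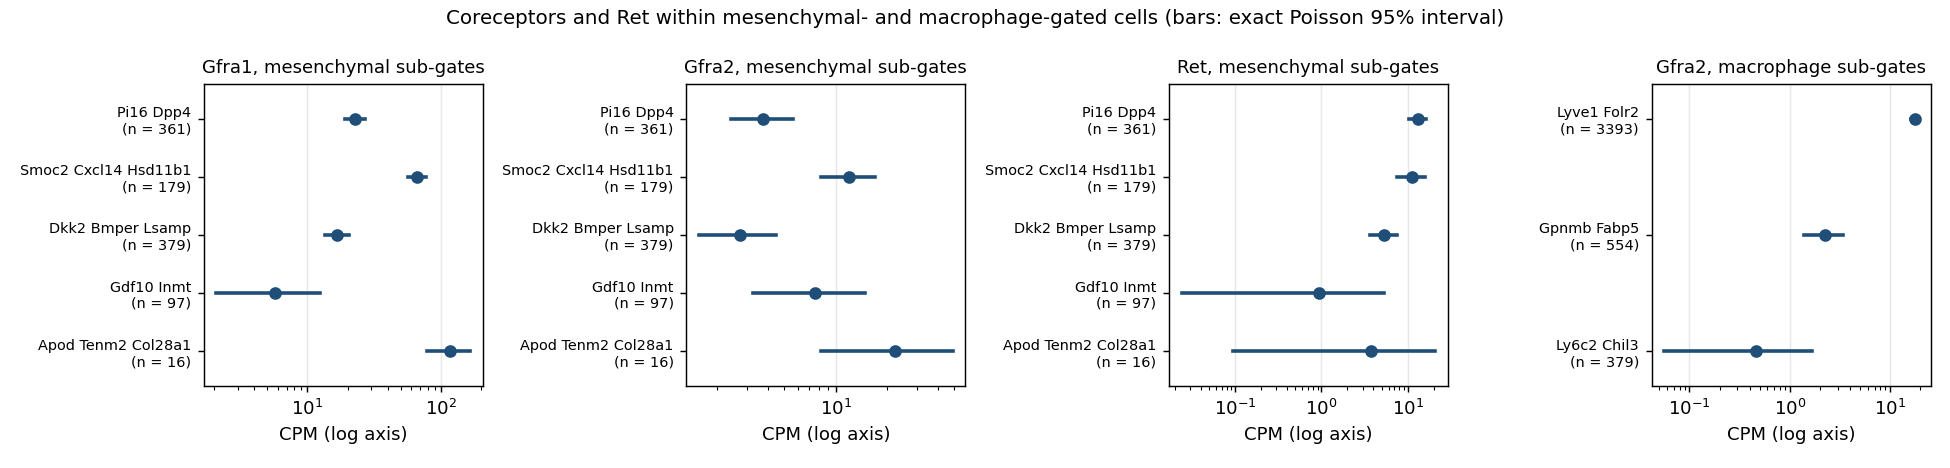
Gfra1, Gfra2 and Ret in 5 groups of mesenchymal-gated cells and Gfra2 in 3 groups of monocyte/macrophage-gated cells (CPM, log axes that differ between panels, exact Poisson 95% intervals). Gfra1 ranged from 5.68 to 115.9 CPM over the fibroblast groups, and Gfra2 from 0.464 to 17.6 CPM over the macrophage groups.

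Gfra3, the preferred coreceptor of artemin, was the rarest member, with 44 UMIs in gated cells, and 39 of these lay in Schwann-gated cells. Its level was 55.7 CPM (39.6 to 76.2) there and 0.0476 CPM (0.0154 to 0.111) in all other gated cells, from 5 UMIs, and the log2 ratio was 10.19 (8.85 to 11.89). Those 5 UMIs were 2 in a perineurial-gated cell, 2 in monocyte/macrophage-gated cells and 1 in a mesenchymal-gated cell, which was 0.0457 CPM (0.00116 to 0.254) of that class. Gfra3 was held by 12 of the 75 Schwann-gated cells, and the 5 cells with the most had 66.7% of its UMIs. The 11 cells that held it after thinning carried mesenchymal markers at 988.5 CPM, against 195.7 CPM in the 64 that did not, and in the 57 cells that passed the Schwann gate alone the Gfra3 level was 22.1 CPM, and 31.1 CPM in all 127 that passed it. The part of mesenchymal RNA in these values was not tested.

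Ret, the shared signalling receptor, was not counted in Schwann-gated cells. They held 0 Ret UMIs in 699922 UMIs, which allows up to 4.29 CPM, and 0 of 75 cells held one, which allows a share of cells with a Ret UMI of up to 4.0% (3 of 75) and sets no limit on cells that express the gene. Since all other gated cells together held 1.93 CPM (1.67 to 2.22), below that limit, a difference from their pooled level was not detectable at this depth. Mesenchymal-gated cells held 191 of the 203 Ret UMIs in gated cells, at 8.72 CPM (7.53 to 10.1). Set against the limit of 3 UMIs, Schwann-gated cells were at least 2.04-fold lower than this class, and the exact interval of the ratio, which also covers the counting error of the mesenchymal level, reached up to 0.610 of that level. Tenocyte-gated cells held 0.928 CPM (0.191 to 2.71), satellite cell and myoblast-gated cells 0.815 CPM (0.0987 to 2.95) and monocyte/macrophage-gated cells 0.0719 CPM (0.0233 to 0.168). Every barcode that passed the Schwann gate, mixed ones included, together held 3 Ret UMIs, or 1.95 CPM (0.401 to 5.69), and the log2 ratio to other gated barcodes was then 0.02 (−2.27 to 1.58).

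Within mesenchymal-gated cells, Ret was held by 128 of 1401 cells. The Pi16 and Dpp4 group had 13 CPM (10.4 to 16.1) and the Smoc2, Cxcl14 and Hsd11b1 group 11.3 CPM (7.60 to 16.1), with overlapping intervals. The Dkk2, Bmper and Lsamp group was lower at 5.33 CPM (3.62 to 7.56), and the fold of the Pi16 and Dpp4 group over it was 2.44 (1.60 to 3.82). The Gdf10 and Inmt group held 1 UMI, or 0.946 CPM (0.0240 to 5.27). Ret and Gfra1 were counted in the same mesenchymal-gated cell 24 times, which is 18.8% of the Ret-holding cells, beside 12.6% of all mesenchymal-gated cells that held Gfra1. At thinned depth the overlap was 5 of 45 cells (11.1%, beside 7.28%), too few for a firm reading.

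**Figure D3:**
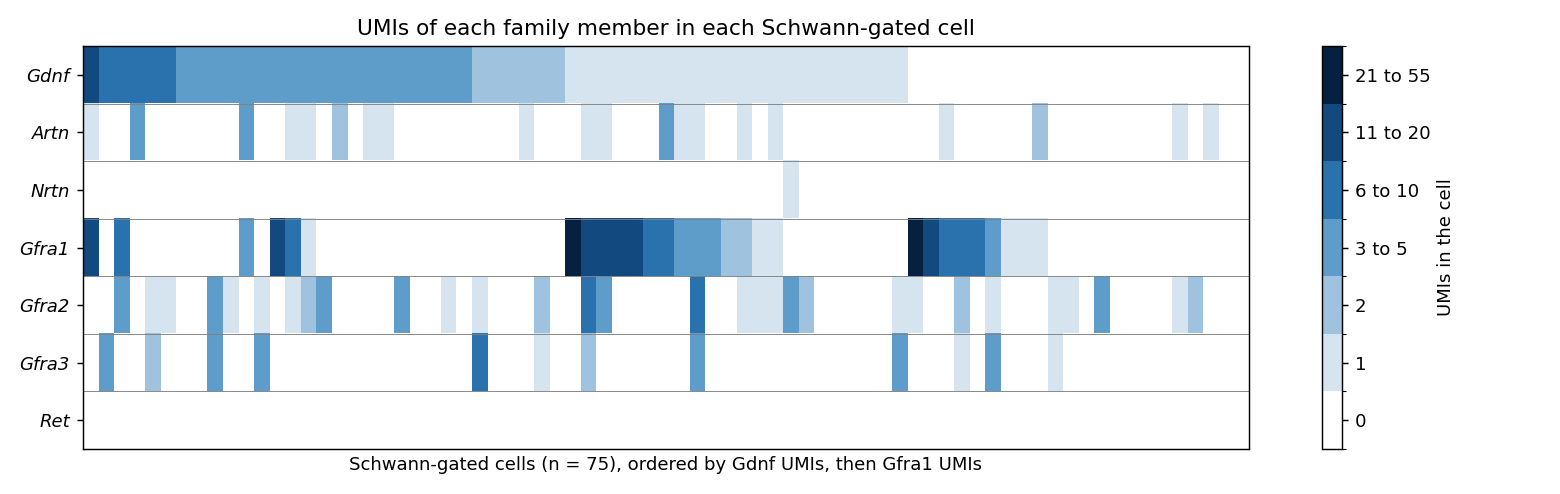
UMIs of the 7 members (rows) in each of the 75 Schwann-gated cells (columns, ordered by Gdnf and then Gfra1 UMIs, colour steps from 0 to 55 UMIs). Gdnf was counted in 53 cells and Gfra1 in 29, with much Gfra1 in cells with at most 1 Gdnf UMI, and the Ret row is empty.

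Whether Gdnf and Gfra1 were counted in the same Schwann-gated cells depended on depth. At full depth Gdnf was found at near the same rate in both sets, in 20 of the 29 cells with Gfra1 and in 33 of the 46 cells without. At equal depth it was found in 10 of the 27 cells with Gfra1 and in 32 of the 48 without. The Gdnf level was 127.7 CPM (88.4 to 178.4) in the cells with thinned Gfra1 and 262.9 CPM (216.8 to 315.8) in those without, and 154.7 CPM (113.7 to 205.7) against 255.0 CPM (207.7 to 309.8) when the cells were split at full depth. Markers of other cells moved with this split too, with the mesenchymal markers at 131.5 CPM in cells with thinned Gfra1 and 431.2 CPM in those without, and the macrophage markers at 60.1 and 20.8 CPM, and their part in the Gdnf values was not tested. Artn showed the opposite order, with 63.8 CPM (37.2 to 102.2) against 25.4 CPM (12.7 to 45.4), and their intervals overlapped. The Gfra1-holding cells carried less Gap43, 469.5 against 756.3 CPM, while Ngfr was at 634.7 CPM (542.6 to 738.0) against 585.7 CPM (515.9 to 662.3). Gfra3-holding cells carried more Gap43, 1156 against 555.1 CPM, but less Ngfr, 373.0 CPM (266.5 to 507.9) against 646.2 CPM (583.1 to 714.3). They held Gfra2 at 186.5 CPM (113.9 to 288.0) against 81.0 CPM (59.7 to 107.4), and macrophage markers at 93.3 against 25.3 CPM. Of the 75 cells, 32 held none of the 3 coreceptors at equal depth, 29 held 1, 12 held 2 and 2 held all 3, while at full depth 27 held none and 4 held all 3. These splits were made after the values were seen, rest on cells of 1 library and carry no test.

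Of the 7 members, 6 passed a minimum of 50 UMIs in gated cells, and Gfra3 did not. At a fold of 2 between Schwann-gated and all other gated cells, 4 of these 6 (Gdnf, Artn, Gfra1 and Gfra2) were higher, where 25.0% of the 16180 genes over the same minimum were. Ret counted as lower from its 0 UMIs, beside 30.0% of all genes, although its level elsewhere was below what Schwann-gated cells could show, and it no longer counted as lower when every barcode that passed the Schwann gate was counted. The median log2 ratio was 4.49 over the 6 members and 0.15 over all genes.

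Of 4 other family members, 2 (Gfra4 and Gdf15) passed the minimum. At a fold of 2, 0 counted as higher and 2 as lower in Schwann-gated cells, beside 25.0% and 30.0% of all genes. Pspn (persephin) had 11 UMIs in all gated cells and Gfra4, its coreceptor, 156, and none of either was in Schwann-gated cells, which allows up to 4.29 CPM. All other gated cells together held Gfra4 at 1.48 CPM (1.26 to 1.74), below that limit, so a difference from their pooled level was not detectable. Gfra4 was at 6.81 CPM (4.27 to 10.3) in tenocyte-gated and 3.56 CPM (2.82 to 4.45) in mesenchymal-gated cells. Gfral, the receptor of GDF15, had 1 UMI. Gdf15, a distant stress-induced ligand, stood at 5.71 CPM in Schwann-gated and 300.3 CPM in other gated cells, with a log2 ratio of −5.72 (−7.59 to −4.36).

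Among 5 other receptors and binding partners of the family, 4 were at least 2-fold higher in Schwann-gated cells and 1 was lower, beside 25.0% and 30.0% of all genes, and the median log2 ratio was 2.72. Gpc1, a heparan sulfate proteoglycan, reached 390.0 CPM against 3.81 CPM (log2 ratio 6.68, 6.45 to 6.90). Cdh2, or N-cadherin, had a log2 ratio of 4.21 (3.93 to 4.49), and Ncam1, the adhesion molecule that can serve GDNF without RET, had 141.4 CPM against 21.4 CPM (2.72, 2.42 to 3.01). Sdc1 had a ratio of 1.37 (0.49 to 2.13), and Sdc3, the syndecan known to bind GDNF, was lower with −3.59 (−5.21 to −2.36).

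The adaptors that couple RET and many other kinases to ERK and PI3K signalling were listed as 18 genes, of which 16 passed the minimum. At least 2-fold higher in Schwann-gated cells were 8, beside 25.0% of all genes, and 1 (Dok1) was lower, beside 30.0%. Dok1 rested on 6 Schwann UMIs, and its log2 ratio of −1.09 had an interval that included 0 (−2.54 to 0.03). Dok4, a docking protein, reached 270.0 against 1.80 CPM (log2 ratio 7.23, 6.93 to 7.53), Dok6 had a ratio of 5.02 (4.54 to 5.48) and Dok5 of 4.03 (2.53 to 5.25). Src, Gab1, Frs2, Grb10 and Sos1 were higher by 1.06 to 2.24 on the log2 scale. The intervals of Grb10 (0.89 to 1.43) and Sos1 (0.60 to 1.49) reached below 2-fold. Grb2, Shc1, Ptpn11, Pik3r1 and Cbl, adaptors and enzymes used by most cells, stayed within 2-fold. The median log2 ratio was 0.86.

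Of 8 targets and feedback genes of ERK signalling, 1 was at least 2-fold higher and 2 were lower. Over all genes the shares were 25.0% and 30.0%, so neither count stood above the background, and the median log2 ratio of the 8 was −0.0047. Spry2, a feedback inhibitor, had 201.5 against 29.7 CPM (2.76, 2.51 to 3.01), while Etv5, a transcription factor that GDNF can induce through RET, was at −1.45 (−3.07 to −0.22) and Etv4 had a single UMI in Schwann-gated cells. Spry4, the other gene counted as lower, rested on 1 UMI as well. Of 5 genes for processing and sorting of GDNF, 1 was at least 2-fold higher and 3 were lower, beside the same shares. Sort1 (sortilin) was higher with a ratio of 1.87 (1.18 to 2.50), the convertases Pcsk5 and Pcsk6 were lower with −1.77 and −2.14, and the sorting receptor Sorl1 was at −1.01 (−2.22 to −0.03).

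**Figure D4:**
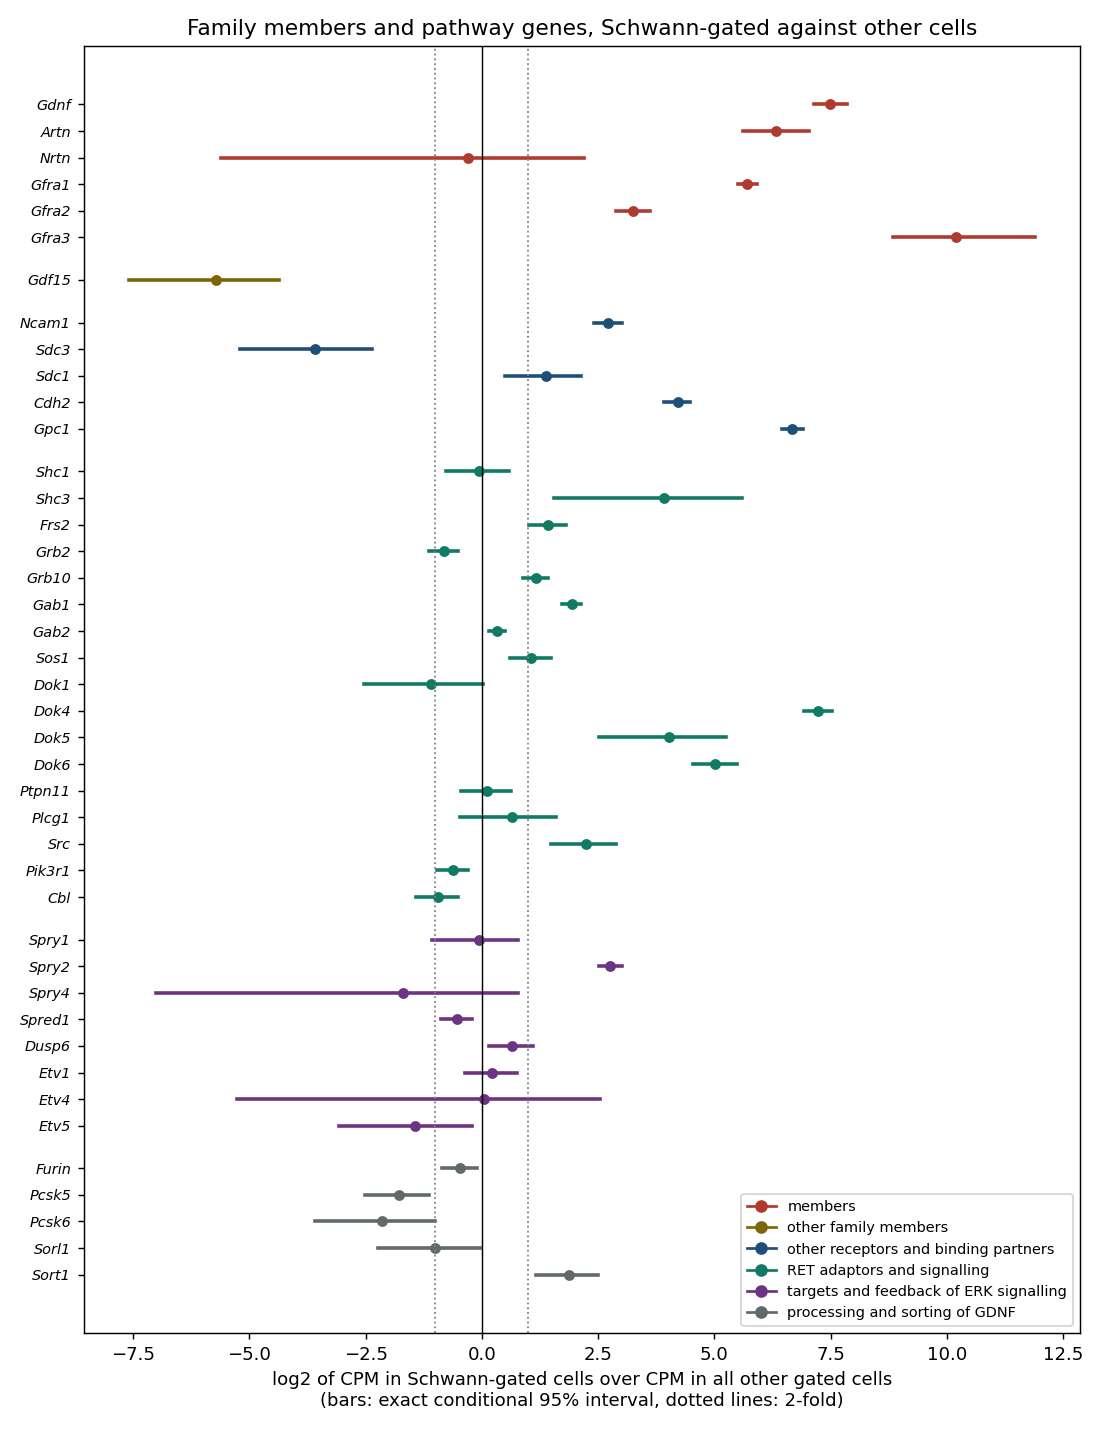
Log2 ratio of CPM in Schwann-gated to all other gated cells for family members and pathway genes, with exact conditional 95% intervals and dotted lines at 2-fold, genes without a Schwann UMI left out. Gdnf, Artn, Gfra1, Gfra2 and Gfra3 lie right of the 2-fold line with their intervals, as do Gpc1, Cdh2, Dok4 and Dok6.

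Genes with the most similar level across the 7 classes with at least 50 cells were sought among 12888 genes outside the marker lists with at least 200 UMIs in gated cells, by Pearson's r of log2(CPM + 1) over the 7 classes. Gfra3, with under 50 UMIs, was left out of the search. The closest to Gdnf were Kdm4b, Sfswap and Hmga2 (r from 0.991 to 0.994), to Artn Gldn and Mmp17 (0.997 and 0.992), to Nrtn Sema3a (0.977) and to Ret F2rl1 and Islr2 (0.993 and 0.989). The closest to Gfra1 and Gfra2 were Fam120c (0.990) and Vezt (0.986). The 7 points share a library, and these r values are a description with no test.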

How the data were processed

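Single GFP+ cells of 1 library were profiled with 3′ droplet chemistry. The authors deposited raw UMI counts per gene and barcode from Cell Ranger, already limited to called cells. The submitters' processing notes give Cell Ranger 7.1.0, the file header 8.0.1, and the genome is given as mm10 there and as GRCm38 and GRCm39 in the methods. Cell Ranger of these versions counts intronic reads by default, so unspliced RNA can add to a level. The GFP- fraction, whose counts are not used here, shares 372 of the 36400 barcodes.

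The members and all lists were chosen with earlier results of these data known. Gates, with their marker lists, needed 3 UMIs over 2 genes. Some genes of these lists and checks are not reported here. Each list's share of a barcode's UMIs was divided by the 90th percentile of that share over barcodes passing the gate, and a margin of 2 over the next list was required. The percentile and margin were set after the data were seen. UMIs were summed over a class and divided by its total (CPM) with exact Poisson intervals. Shares have Clopper-Pearson intervals, ratios exact conditional ones, and a count of 0 a limit of 3 counts. UMIs were not divided by gene length, and levels are compared within a gene. Doublets were not removed, except in an alternative with Scrublet scores (scanpy 1.11.5). The alternatives covered depth, mitochondrial share, gate stringency, mixed barcodes, averaging and thinning, as the closing section reports. Named genes were the members, the pathway lists, the identity checks and the 5 genes most like each member with at least 50 UMIs in gated cells, which left out Gfra3. The gates and ratio intervals were tried on counts simulated with Poisson noise around pooled profiles of these data. That simulation left out the uneven spread of a gene's UMIs between cells of a class, so it does not show how the intervals behave under it. Python 3.11.15, numpy 2.4.6, scipy 1.17.1 and pandas 2.3.3 were used. Gene positions and promoter windows come from RefSeq (GRCm38.p6), where all 7 members were matched by symbol and 4 had a window. In that table other genes overlap Gfra1, Gfra2 and Gfra3, with no strand given. In GENCODE M39, on GRCm39, Gfra1 and Gfra2 alone among the members are overlapped, by genes on the opposite strand, and droplet counts are assigned by strand.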

Additional observations from a re-analysis of the deposited data

How the results depend on the processing

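The class ratios kept their direction under all alternatives that gave a value, except that of Nrtn, which rested on 1 UMI and ranged from −1.11 to 0.81 over 9 of 12 alternatives, the other 3 giving none, and that of Ret, which had 0 UMIs in Schwann-gated cells except when every barcode passing the gate was counted, where it was 0.02. The log2 ratios ranged from 6.02 to 7.25 for Artn, from 3.00 to 3.37 for Gfra2 and from 9.28 to 10.98 for Gfra3. For Gdnf the ratio was 6.79 when every barcode passing the Schwann gate was counted, 8.0 for barcodes passing a single gate and 6.98 with no margin between gates. For Artn it was 7.25 with a single gate. For Gfra1 it was 6.13 with at least 10000 UMIs, 5.03 under 5% mitochondrial counts, 5.19 with every barcode passing the gate and 6.09 with a single gate. Without thinning, the share of Schwann-gated cells with a UMI was 70.7% for Gdnf and 40.0% for Gfra2. The cause of these shifts was not tested, beyond the change of cells and depth that each setting makes.

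Counting every barcode that passed the gate gave 129.7 CPM of Gdnf and 31.1 CPM of Gfra3, and a margin of 3 gave 33.7 CPM of Gfra3. Removing the 1267 barcodes (14.6%) with the highest doublet scores took 5 of the 75 Schwann-gated cells and 55.5% of barcodes with several gates, and with the list scales then recomputed the class held 65 cells and the Gdnf ratio was 7.76. Alternatives without a margin, with a margin of 3, with the median as scale, without the barcode with the most UMIs and with cells split by Gfra1 at full depth were chosen after seeing the data. No paired analysis was possible because there is 1 library.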

Other observations

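Schwann-gated barcodes under 5000 UMIs numbered 53, with a median of 2024 UMIs. They held Gdnf at 135.6 CPM (80.4 to 214.3), Gfra1 at 165.7 CPM (103.9 to 250.9), Gfra2 at 128.1 CPM (74.6 to 205.1), Gfra3 at 60.3 CPM (26.0 to 118.8) and 0 UMIs of Ret. In monocyte/macrophage-gated barcodes below that depth, Gfra1 was at 7.07 CPM (5.93 to 8.38), against 0.417 CPM in the deep ones, and Ret at 1.48 CPM (0.982 to 2.14), against 0.0719 CPM. Tenocyte-gated barcodes below that depth held Nrtn at 10.6 CPM (7.02 to 15.3), against 31.6 CPM in the deep ones, and Gfra2 at 11.3 CPM (7.64 to 16.2), against 4.33 CPM.

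Barcodes that passed several gates without a clear lead held 59 UMIs of Gdnf, 186 of Gfra1 and 140 of Gfra2. The 52 barcodes that passed the Schwann gate but were left out of the class held 52 UMIs of Gdnf, 146 of Gfra1, 9 of Gfra3 and 3 of Ret.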
